A study of Homo sapiens with 12 samples.

Results

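Transcripts of 9 histone demethylase genes were followed across 12 RNA-seq libraries of HT1080, a human fibrosarcoma cell line. The genes were JHDM1D, KDM1A, KDM2A, KDM4A, KDM4B, KDM4C, KDM5A, KDM5B and KDM6B. They were found by symbol among the 36502 genes of the count table, and all 9 were among the 17262 genes with enough reads to be tested. JHDM1D was chosen by its measured level, which had been seen to be raised in the GFP tracer libraries of index set 1, so its values in those libraries describe the choice and carry no test. The other 8 are named members of the same enzyme families.

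Histone demethylases remove methyl groups from lysines of histone tails. KDM1A, also called LSD1, uses a flavin cofactor and acts on mono- and dimethylated H3K4, mostly inside complexes with CoREST proteins and histone deacetylases. The other members carry a Jumonji C domain, which needs iron, oxygen and 2-oxoglutarate, and differ in the lysine they act on. HT1080 cells carry a mutant IDH1 whose product, 2-hydroxyglutarate, is known to inhibit enzymes of this Jumonji type. H3K9 dimethylation, a mark named in the title of the series, is a substrate of JHDM1D.

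Each library came from 1 of 2 clones of HT1080, so a difference between reporters is also a difference between clones. The GFP clone makes the m6A-Tracer, in which GFP is joined to a domain with affinity for DNA carrying methylated adenine, and the VP16 clone makes such a tracer with a VP16 activation domain. Uninduced cells of either clone (GFP_uninduced, VP16_uninduced) had 4 days of doxycycline at 50 ng/ml. Tracer cells (GFP_tracer, VP16_tracer) had 3 days of it and then 24 h without, which turns the tracer on. Cells of the third condition (GFP_tracer_Dam, VP16_tracer_Dam) had the tracer schedule plus 500 nM Shield1, which stabilises Dam-LaminB1, a DNA adenine methyltransferase joined to lamin B1. The tracer and the withdrawal of doxycycline came together, as did Dam-LaminB1 and Shield1, so within each pair their effects cannot be told apart. The 6 groups had 2 libraries each, which the series describes as biological replicates without saying whether the cultures were separate.

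The libraries held 18774905 to 24827396 counted reads, and fell into 2 sets of 6 that reused the same index sequences, here index sets 1 and 2, with 1 library of each group in each. The GFP_tracer and GFP_tracer_Dam libraries of index set 1 stood apart from all others. In these, 14 of 14 integrated stress genes were above the uninduced library of the same clone and set, with medians of 2.45 and 2.66 on the log2 scale, against -0.16 and -0.12 in index set 2. LMNB1, which encodes lamin B1, was at 36.9 and 29.4 CPM, the read count scaled to the size of the library, in these libraries and between 122 and 202 CPM in the other 10. Mesenchymal markers summed to between 5013 and 8470 CPM over 8 genes, carried mostly by VIM, CD44, SPARC and FN1. TWIST1, a defining factor of this list, was between 4.12 and 10.2 CPM, and THY1 was below 1 CPM in all 12 libraries. Summed epithelial markers reached 5.49 CPM, summed neural markers 18.5 CPM and summed blood markers 0.686 CPM.

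Promoter sequences are shown for the members that were highest, relative to the uninduced library, in those GFP tracer libraries (JHDM1D and KDM6B), and for KDM4B, which was not. Each is the 250 bases before a RefSeq gene start on GRCh38.p14, written 5′ to 3′ on the strand of the gene: JHDM1D (KDM7A in RefSeq) at chr7:140176984-140177233 on the minus strand, the first of 2 KDM6B entries at chr17:7833967-7834216 on the plus strand, and KDM4B at chr19:4968863-4969112 on the plus strand. Capitals mark the letters ACGTG on either strand. In KDM4B matches on both strands overlap in the letters CACGTG.
JHDM1D: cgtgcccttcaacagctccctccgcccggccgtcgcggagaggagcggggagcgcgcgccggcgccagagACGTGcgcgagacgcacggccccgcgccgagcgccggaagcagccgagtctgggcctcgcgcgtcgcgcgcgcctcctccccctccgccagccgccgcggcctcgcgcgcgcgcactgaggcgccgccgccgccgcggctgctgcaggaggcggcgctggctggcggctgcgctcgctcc
KDM6B: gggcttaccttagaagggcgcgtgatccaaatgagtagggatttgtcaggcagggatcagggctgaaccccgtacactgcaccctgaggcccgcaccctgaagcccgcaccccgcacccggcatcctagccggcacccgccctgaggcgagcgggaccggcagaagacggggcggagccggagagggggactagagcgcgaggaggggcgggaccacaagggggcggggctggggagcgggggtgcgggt
KDM4B: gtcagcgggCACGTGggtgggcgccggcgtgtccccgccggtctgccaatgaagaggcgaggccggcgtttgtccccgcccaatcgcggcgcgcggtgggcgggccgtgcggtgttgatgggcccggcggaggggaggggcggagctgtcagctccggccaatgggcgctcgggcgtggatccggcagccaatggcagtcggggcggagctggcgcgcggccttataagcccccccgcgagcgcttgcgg
The JHDM1D promoter was 81.6% G or C, against a median of 58.0% over all promoters in the table. ACGTG occurred in 18.5% of 35116 promoters of this length. It was found at 1 place for JHDM1D, KDM1A and KDM4B and at 2 places for KDM4C, and not in the windows of the other members. The CEBP-ATF composite letters TGATGNAA (3.14% of promoters) and the NF-kB letters GGGNN followed by TTTCC (1.73%), searched on both strands, did not occur in any of the 11 windows of the 9 members.

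KDM1A was by far the most abundant of the 9 transcripts. In the 4 uninduced libraries it was at 53.6 ± 5.66 CPM per kb of its principal transcript (SD, n = 4). These are 1 library of each clone in each index set, so the SDs here include differences between clones and sets. KDM2A followed at 15.6 ± 1.92 CPM per kb (SD, n = 4). The H3K9 and H3K36 demethylases came next, KDM4A at 14.5 ± 0.747 and KDM4B at 12.2 ± 1.10 CPM per kb. KDM5A was at 9.72 ± 1.35, KDM5B at 6.68 ± 0.853 and KDM4C at 6.29 ± 0.668 CPM per kb. The lowest were KDM6B at 3.96 ± 0.218 and JHDM1D at 1.25 ± 0.530 CPM per kb. The ranges of KDM2A and KDM4A overlapped, as did those of KDM4B and KDM5A and those of KDM5B and KDM4C. Other neighbours in this order did not overlap over the 4 libraries.

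**Figure D1:**
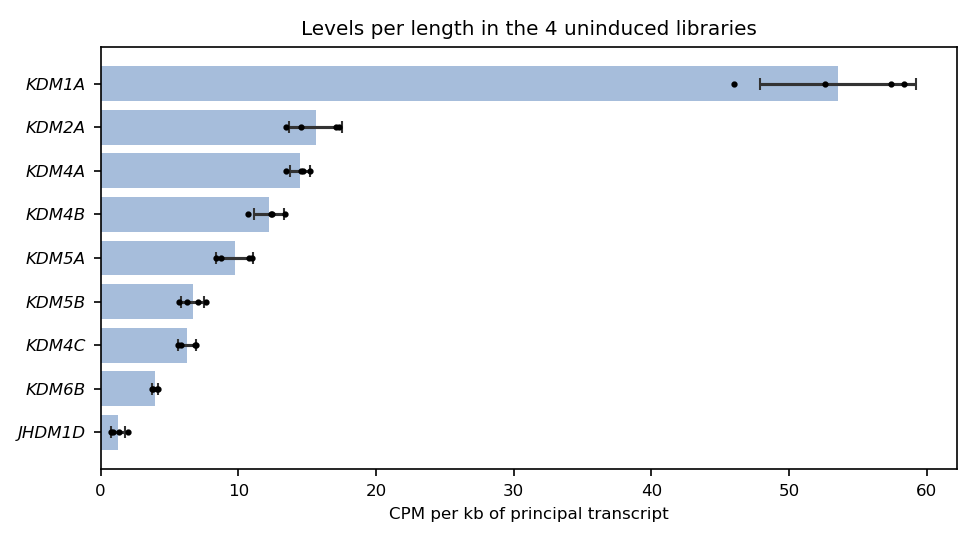
Levels of the 9 members per length in the 4 uninduced libraries, in CPM per kb of the principal transcript; bars are means, points are libraries and error bars are SD (n = 4, over both clones and both index sets). KDM1A, at 53.6, lies far above the rest, and JHDM1D, at 1.25, is the lowest.

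JHDM1D removes methyl groups from dimethylated H3K9 and from H3K27. Its gene lies on chromosome 7 (ENSG00000006459, GRCh37, 139784546 to 139876835). In index set 1 it was at 7.28 CPM in GFP_uninduced, 52.3 in GFP_tracer and 56.3 in GFP_tracer_Dam. The same groups of index set 2 were at 12.3, 12.0 and 11.0 CPM. The VP16 clone was at 8.64, 10.1 and 10.4 CPM in index set 1 for the uninduced, tracer and Dam-LaminB1 conditions. It was at 18.3, 19.9 and 19.0 CPM in index set 2. The 2 GFP tracer libraries of index set 1 were the highest of the 12, the other 10 lay between 7.28 and 19.9 CPM, and within either clone the groups overlapped. In bulk RNA, fewer cells with a transcript and less of it per cell cannot be told apart.

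Within index set 1 of the GFP clone, JHDM1D was 7.18 times its uninduced level with the tracer (95% counting interval 6.09 to 8.52) and 7.74 times with Dam-LaminB1 (6.58 to 9.16). Within index set 2 the ratios were 0.980 (0.828 to 1.16) and 0.897 (0.758 to 1.06). Counting intervals cover counting error only. Ratios in the VP16 clone lay between 1.04 and 1.20, and all 4 intervals included equality. The fitted tracer change in the GFP clone, over both sets, was 1.71 ± 0.89 on the log2 scale (SE), given without a test. Without the GFP tracer libraries of index set 1 the same change was 0.30 ± 0.62, from 1 tracer library in that clone. That library was of index set 2, while the uninduced libraries were of both sets, and within index set 2 the ratio was 0.980.

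A noncoding gene that starts beside JHDM1D, RP4-659J6.2 (KDM7A-DT in RefSeq), lies 225 bases beyond it on chromosome 7 (GRCh37, 139877061 to 139879440). It was at 1.42 CPM in GFP_uninduced of index set 1, 5.00 in GFP_tracer and 6.26 in GFP_tracer_Dam. These are ratios of 3.52 (2.35 to 5.42) and 4.41 (3.00 to 6.68), from 32, 102 and 154 reads. In index set 2 of the GFP clone both ratios were 1.08. The noncoding gene was thus high in the same 2 libraries as JHDM1D, at a lower ratio. Its other 10 libraries were between 1.42 and 3.11 CPM.

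**Figure D2:**
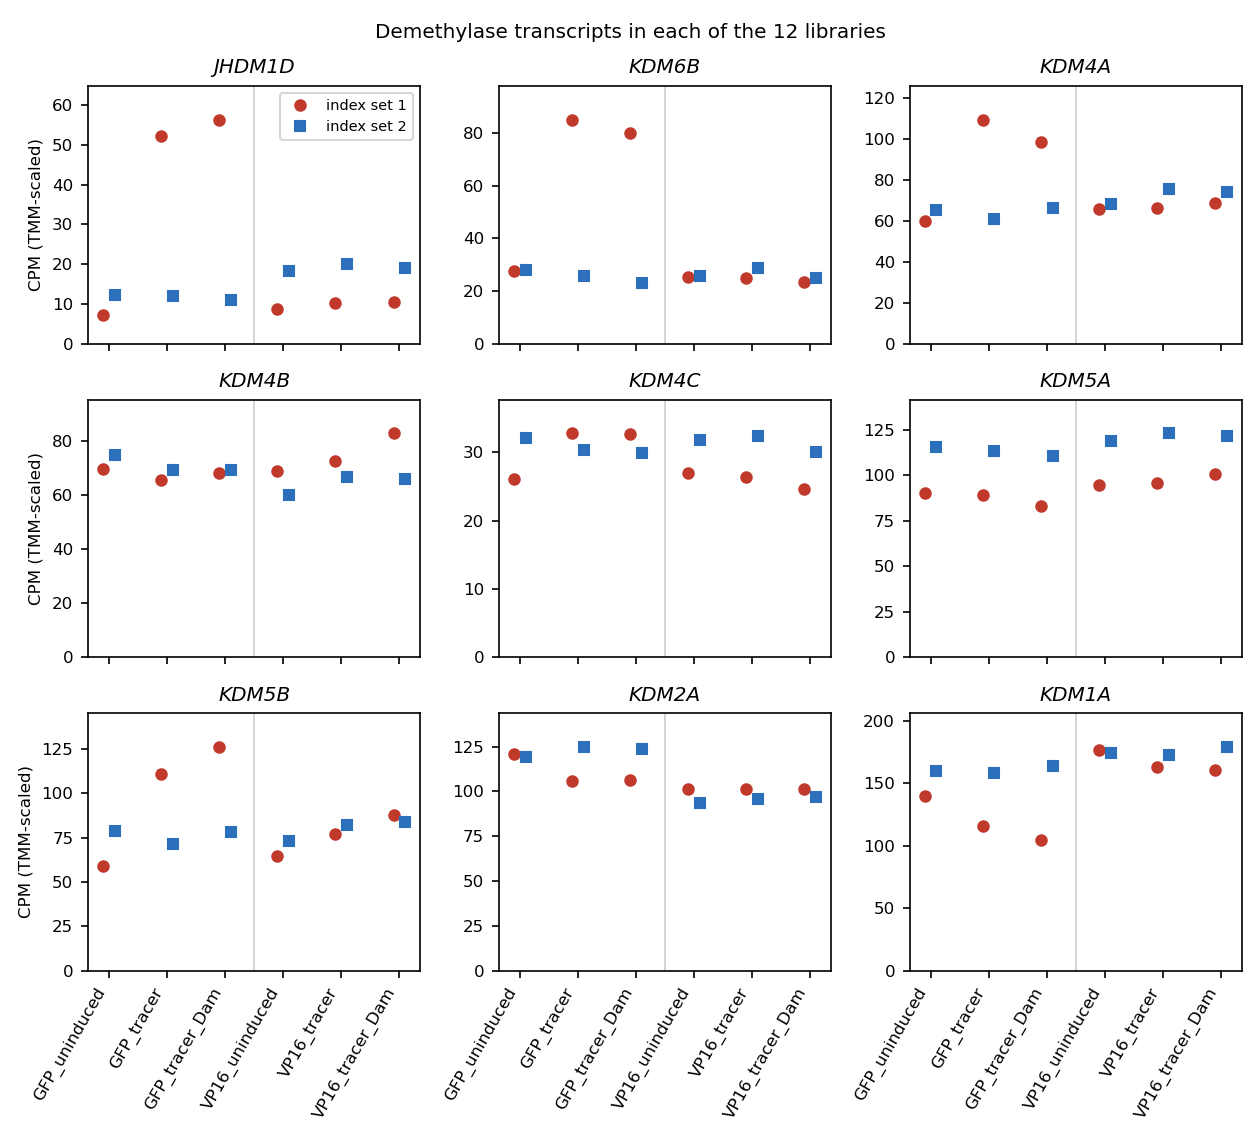
Levels of the 9 members in each of the 12 libraries, as CPM after TMM scaling; circles are index set 1, squares index set 2, and a line separates the GFP clone (left) from the VP16 clone (right). JHDM1D, KDM6B, KDM4A and KDM5B are highest in the GFP tracer libraries of index set 1, where KDM1A is lowest. KDM4C is also highest there (32.8 and 32.7 CPM, with the next library at 32.4). KDM5A is also lowest there (89.3 and 83.2 CPM, with the next at 90.0).

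KDM6B, also called JMJD3, removes methyl groups from trimethylated H3K27 and is known as a gene that macrophages switch on with inflammatory stimuli. It lies on chromosome 17 (ENSG00000132510, GRCh37, 7743222 to 7758114). In index set 1 of the GFP clone it was at 27.6 CPM uninduced, 85.0 with the tracer and 79.8 with Dam-LaminB1. Index set 2 was at 28.1, 25.8 and 22.8 CPM. The VP16 clone was at 25.1, 24.8 and 23.3 CPM in index set 1 and at 25.6, 28.7 and 24.9 CPM in index set 2. The GFP tracer libraries of index set 1 were the only ones above 28.7 CPM.

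The within-set ratios of KDM6B in the GFP clone were 3.09 (2.81 to 3.39) and 2.89 (2.64 to 3.17) in index set 1. They were 0.919 (0.821 to 1.03) and 0.812 (0.725 to 0.910) in index set 2, so the sets were on opposite sides of 1 in both conditions. The VP16 clone had ratios from 0.927 to 1.12. The fitted tracer change in the GFP clone was 0.99 ± 0.60 on the log2 scale (SE), and -0.10 ± 0.13 without the GFP tracer libraries of index set 1.

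In the tests of the tracer and of Dam-LaminB1, edgeR's quasi-likelihood test with Benjamini-Hochberg adjustment called none of the 17262 genes in either clone at an adjusted p of 0.05. The share of all genes called was 0% in each. At an unadjusted p under 0.05 the GFP tracer comparison had 125 genes and the VP16 tracer comparison 72, and DESeq2 and limma-voom called 0 genes in both. The test of the difference in tracer change between the clones called 0 genes as well (0%, 94 genes at an unadjusted p under 0.05, and 0 called by DESeq2 and limma-voom). JHDM1D was chosen on the GFP tracer libraries, so nothing is read about the members from the GFP tracer comparisons or from that difference. In the VP16 clone, which the choice did not use, the members' median tracer change was 0.08 on the log2 scale, against -0.0030 over all genes tested, and 0 of 9 members were called beside 0% of all genes. For Dam-LaminB1 against the tracer in the VP16 clone the members' median was 0.01. There were 80 genes at an unadjusted p under 0.05 in the GFP clone and 53 in the VP16 clone for Dam-LaminB1, again with 0 called by edgeR, DESeq2 and limma-voom. These fits estimated the spread of each gene over all 12 libraries, including the GFP tracer libraries that stand apart. For the VP16 tracer change the SE of KDM5B was 0.27 here, against 0.06 with the VP16 libraries alone and the index set blocked. That second fit called 139 of 16139 genes (0.861%) for the tracer and 0 members.

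KDM4A, KDM4B and KDM4C remove methyl groups from trimethylated H3K9 and H3K36. KDM4A (chromosome 1, GRCh37, 44115829 to 44171186) was at 60.1, 109 and 98.6 CPM in the uninduced, tracer and Dam-LaminB1 libraries of index set 1 in the GFP clone. The values in index set 2 were 65.1, 61.0 and 66.2 CPM. The VP16 clone was at 65.6, 66.2 and 68.8 CPM in index set 1 and at 68.0, 75.7 and 74.2 in index set 2. KDM4A thus had its 2 highest libraries where JHDM1D did, with within-set ratios of 1.82 (1.70 to 1.95) and 1.64 (1.53 to 1.75). An antisense gene, RP11-184I16.2, overlaps KDM4A with at most 71 reads in a library, and the counting is not stated to use strand.

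KDM4C (chromosome 9, GRCh37, 6720863 to 7175648) differed less from uninduced in the same libraries, at 26.1, 32.8 and 32.7 CPM. Its within-set ratios there were 1.26 (1.12 to 1.41) and 1.25 (1.12 to 1.39), against 0.946 and 0.932 in index set 2. In index set 2 of the GFP clone it was at 32.1, 30.4 and 29.9 CPM, so the groups overlapped. The VP16 clone was at 27.1, 26.4 and 24.6 CPM in index set 1 and at 31.8, 32.4 and 30.1 in index set 2.

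KDM4B (chromosome 19, GRCh37, 4969124 to 5153606) had another pattern. In the GFP clone it was at 69.8, 65.5 and 68.2 CPM in index set 1 and at 74.7, 69.2 and 69.2 in index set 2. The VP16 clone was at 69.0, 72.7 and 83.0 CPM in index set 1 and at 59.9, 66.7 and 65.9 in index set 2. In both sets the VP16 tracer libraries were above the uninduced library and the GFP tracer libraries below it. For the tracer in index set 1 the counting intervals included 1 in both clones. For the tracer with Dam-LaminB1 against uninduced in the VP16 clone, the change was 0.21 ± 0.14 on the log2 scale (SE), with an adjusted p of 1 in edgeR's quasi-likelihood test over all 12 libraries.

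**Figure D3:**
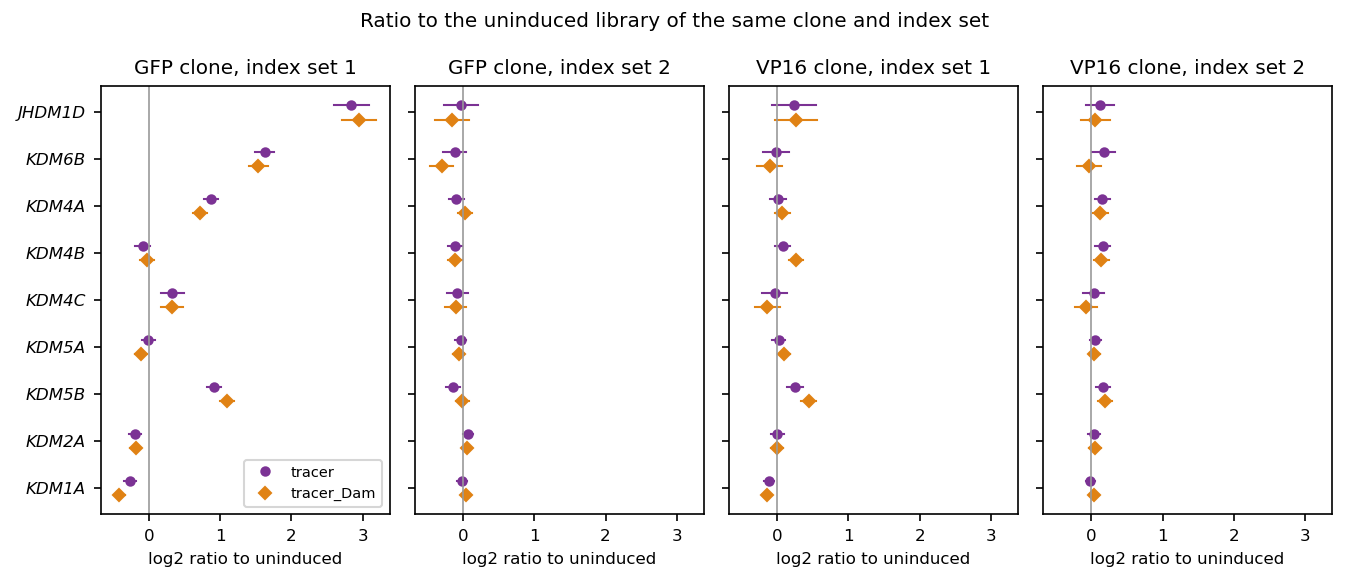
Log2 ratio of each tracer library to the uninduced library of its own clone and index set, for the 9 members; circles are the tracer, diamonds the tracer with Dam-LaminB1, and bars are 95% counting intervals. Large ratios lie in index set 1 of the GFP clone, where JHDM1D was at 7.18 and 7.74 times its uninduced level.

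KDM5A and KDM5B remove methyl groups from trimethylated H3K4. KDM5B (chromosome 1, GRCh37, 202696526 to 202778598) was at 59.0, 111 and 126 CPM in index set 1 of the GFP clone. In index set 2 it was at 78.9, 71.6 and 78.1 CPM. Its levels in the VP16 clone were 64.9, 77.1 and 88.0 CPM in index set 1 and 73.3, 82.2 and 83.7 in index set 2. The order uninduced, tracer, Dam-LaminB1 thus went upward in both sets of the VP16 clone, while in the GFP clone it did so only in index set 1.

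In the VP16 clone the within-set ratios of KDM5B were 1.19 (1.10 to 1.28) and 1.12 (1.05 to 1.20) for the tracer. With Dam-LaminB1 they were 1.36 (1.26 to 1.46) and 1.14 (1.07 to 1.22), so all 4 intervals lay above 1. Against uninduced, the Dam-LaminB1 condition was higher by 0.31 ± 0.27 on the log2 scale (SE), with an adjusted p of 1 in edgeR's quasi-likelihood test over all 12 libraries. That test called 0 of 17262 genes (0%), with 189 at an unadjusted p under 0.05, and DESeq2 and limma-voom called 0. With the index set as a block over all 12 libraries, edgeR again called 0 genes (0%, with 623 at an unadjusted p under 0.05). KDM5B was at 0.31 ± 0.26 and KDM4B at 0.21 ± 0.12 on the log2 scale in that fit (SE), both with an adjusted p of 1 from edgeR. When only the 6 VP16 libraries were fitted and the index set was blocked, 1573 of 16139 genes were called (9.75%). KDM5B rose there by 0.32 ± 0.06 on the log2 scale (SE), with an adjusted p of 0.00134 from edgeR's quasi-likelihood test. KDM4B rose in the same fit by 0.21 ± 0.06, with an adjusted p of 0.0200, and the other 7 members were not called. The tracer against uninduced called 139 genes in this fit (0.861%) and 0 members, with KDM5B at 0.21 ± 0.06 and an adjusted p of 0.0933 from edgeR. Dam-LaminB1 against the tracer called 13 genes (0.0806%) and 0 members. G1/S genes were below the uninduced library in the VP16 Dam-LaminB1 libraries, with 10 of 10 lower in each set and medians of -0.48 and -0.28 on the log2 scale, and their part in these changes was not tested.

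KDM5A (chromosome 12, GRCh37, 389223 to 498620) differed mainly between the index sets. In the GFP clone it was at 90.0, 89.3 and 83.2 CPM in index set 1 and at 116, 113 and 111 CPM in index set 2. Levels in the VP16 clone were 94.5, 95.6 and 101 CPM in index set 1 and 119, 123 and 122 CPM in index set 2. All 6 libraries of index set 1 were below all 6 of index set 2. CCDC77 overlaps KDM5A with up to 564 reads in a library, and without stated strand the reads of the overlap cannot be told apart.

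KDM2A acts on dimethylated H3K36 and binds unmethylated CpG islands through its zinc finger. It lies on chromosome 11 (ENSG00000173120, GRCh37, 66886740 to 67025141). In the GFP clone it was at 121, 106 and 106 CPM in index set 1 and at 119, 125 and 124 CPM in index set 2. In the VP16 clone it was at 102, 102 and 101 CPM in index set 1 and at 93.7, 96.0 and 97.1 CPM in index set 2. All 6 libraries of the VP16 clone, from 93.7 to 102 CPM, lay below all 6 of the GFP clone, from 106 to 125 CPM.

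Between the uninduced clones, edgeR's quasi-likelihood test called 48 of 17262 genes (0.278%) and 0 of 9 members. KDM2A was 0.30 ± 0.13 lower in the VP16 clone on the log2 scale (SE), with an unadjusted p of 0.0438 and an adjusted p of 0.646. KDM1A was higher by 0.23 ± 0.22 and JHDM1D by 0.46 ± 0.87, both with an adjusted p of 1 from edgeR. With the index set as a block, 327 genes were called (1.89%) and again 0 members. Over all 3 conditions, 1318 genes were called between the clones (7.64%), and again 0 members. KDM2A differed by -0.24 ± 0.07 with an adjusted p of 0.0817 from edgeR's quasi-likelihood test. With the index set as a block, 3609 genes were called (20.9%), among them 2 members, KDM2A at -0.24 ± 0.07 (adjusted p = 0.0334, edgeR) and KDM1A at 0.30 ± 0.09 (adjusted p = 0.0475, edgeR). DESeq2 called KDM2A too (adjusted p = 0.0294), among 12.8% of all genes. Without the GFP tracer libraries of index set 1 and without the block, the KDM2A difference was -0.33 with an adjusted p of 0.0114 from edgeR, the 1 member among 10.9% of genes called.

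KDM1A lies on chromosome 1 (ENSG00000004487, GRCh37, 23345941 to 23410182). In the GFP clone it was at 139, 116 and 104 CPM in index set 1 and at 159.6, 158 and 164 CPM in index set 2. In the VP16 clone it was at 177, 163 and 161 CPM in index set 1 and at 174, 172 and 179 CPM in index set 2. The GFP tracer libraries of index set 1 were the lowest of the 12, with within-set ratios of 0.831 (0.788 to 0.877) and 0.748 (0.710 to 0.788). JHDM1D and KDM1A were thus at opposite ends of their ranges in these libraries. Without the GFP_tracer_Dam library of index set 2, the KDM1A difference between the clones was 0.41 ± 0.10 on the log2 scale (SE). That group then kept only its index set 1 library, in which KDM1A was the lowest of the 12. Without the GFP tracer libraries of index set 1, and with the block, 33.3% of genes and 4 members were called, namely JHDM1D, KDM1A, KDM2A and KDM4A. In that fit KDM1A was higher in the VP16 clone by 0.14 ± 0.04 on the log2 scale (SE). Each GFP tracer group held 1 library there. Nothing is read from JHDM1D in it, since it kept GFP_uninduced of index set 1, where JHDM1D was lowest.

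The index sets were compared within the VP16 clone, which the choice of JHDM1D did not use. Index set 1 against 2 called 7025 of 16139 genes (43.5%, with 21.9% higher and 21.7% lower) with edgeR's quasi-likelihood test, and 5 of the 9 members, a share near that of all genes. JHDM1D had the largest difference of the 9, at -0.96 ± 0.08 on the log2 scale (SE; adjusted p = 3.1e-10, edgeR), lower in 3 of 3 groups. KDM5A was lower by 0.32 ± 0.04 and KDM4C by 0.27 ± 0.06, with adjusted p of 2.6e-07 and 0.00047 from edgeR. KDM4A was also lower in index set 1 (-0.12 ± 0.04, adjusted p = 0.0365), a call that DESeq2, with 24.1% of genes called, did not make (adjusted p = 0.263). KDM4B was higher, by 0.23 ± 0.05 with an adjusted p of 0.000305 from edgeR. KDM1A, KDM2A, KDM5B and KDM6B did not pass, with differences from -0.11 to 0.09. Stress lists differed between the index sets of the VP16 clone too. All 8 NF-kB and inflammatory genes tested were higher in index set 1, with a median of 0.74 on the log2 scale against 0.01 over all genes. Of 14 integrated stress genes, 5 were higher, among them ATF3 at 0.85 ± 0.09, and 6 were lower, among them SLC7A11 at -1.90 ± 0.15 and CHAC1 at -1.56 ± 0.13 (SE), with a median of -0.17. Of 10 G1/S genes, 1 was higher and 7 were lower. The part of these lists in the difference of JHDM1D was not tested. When the GFP clone entered the member fit as well, 28.2% of genes were called and KDM5A was the 1 member among them.

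The index-set ratio of JHDM1D was below 1 in 4 of the 6 groups. It was 0.593 in GFP_uninduced, and 0.473, 0.510 and 0.546 in the VP16 groups. In GFP_tracer and GFP_tracer_Dam it was 4.35 and 5.12. JHDM1D was therefore lower in index set 1 than in index set 2 in 4 groups and higher in the other 2.

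**Figure D4:**
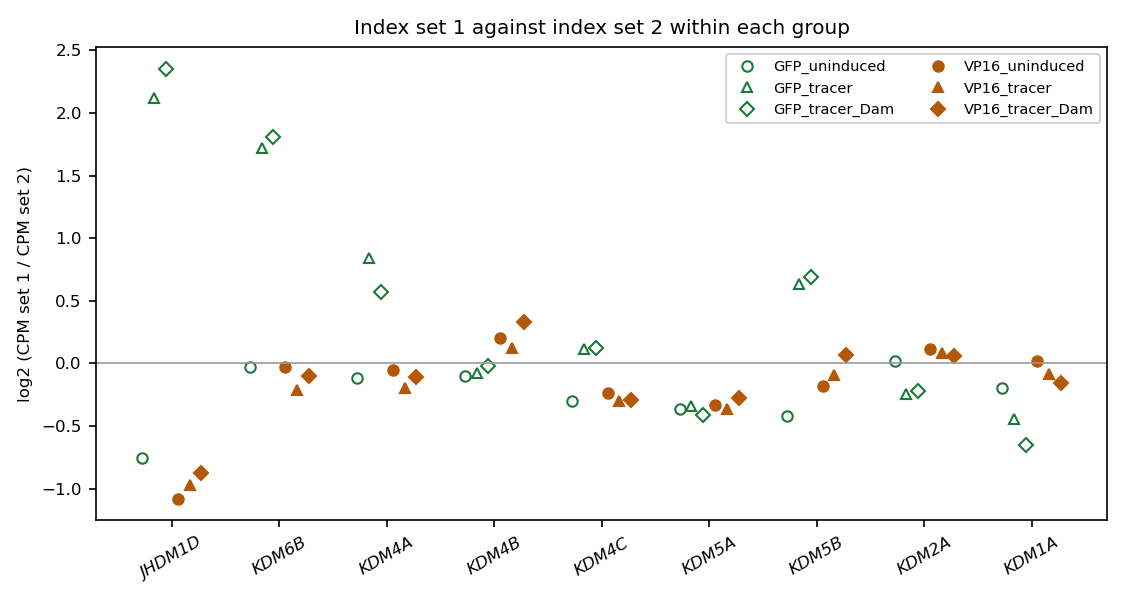
Log2 ratio of CPM in index set 1 to index set 2 within each of the 6 groups, for the 9 members; open symbols are the GFP clone and filled symbols the VP16 clone. JHDM1D lies below 0 in 4 groups and above 2 in the GFP tracer groups, and KDM5A lies below 0 in all 6.

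Gene lists that stood apart in the GFP tracer libraries of index set 1 are given beside the members. The integrated stress list holds targets of ATF4, the factor that cells use under amino acid or unfolded-protein stress. DDIT3, which encodes CHOP, was at 93.5 and 77.3 CPM in these libraries and between 4.73 and 8.11 CPM in the other 10. Of 9 NF-kB and inflammatory genes tested, 8 were above uninduced with the tracer and 7 with Dam-LaminB1, with medians of 1.38 and 1.46 on the log2 scale. The G1/S genes encode the replicative helicase, cyclins of S-phase entry, E2F1 and PCNA. They were below uninduced in 10 of 10 cases in each library, with medians of -1.13 and -1.64. Of 8 hypoxia-induced genes tested, 4 and 6 were above uninduced, with medians of 0.08 and 0.39. They ranged from -0.24 to 2.16 with the tracer and from -0.11 to 2.92 with Dam-LaminB1. VEGFA was highest, at 115, 516 and 875 CPM in GFP_uninduced, GFP_tracer and GFP_tracer_Dam of index set 1, and was named after its values were seen. H3K9 methyltransferases were below uninduced in 4 of 6 cases in each of the 2 libraries, with medians of -0.59 and -0.71. In index set 2 of the GFP clone 5 of 6 of them were above it, with medians of 0.11 and 0.09. The median of all genes tested was 0.02 and 0.03 in index set 1. What these lists contribute to the members' levels was not tested.

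**Figure D5:**
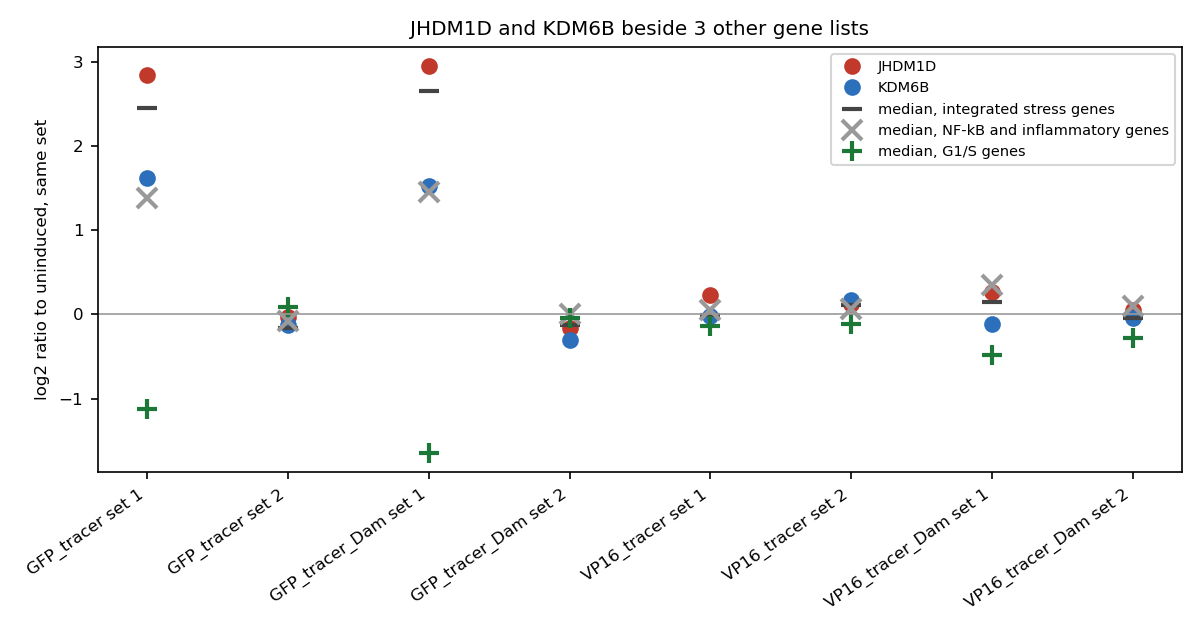
Log2 ratio to the uninduced library of the same clone and index set, for JHDM1D and KDM6B and for the medians of the integrated stress, NF-kB and G1/S lists, in each of the 8 tracer libraries. In GFP_tracer and GFP_tracer_Dam of index set 1 the integrated stress median is at 2.45 and 2.66, JHDM1D lies above it and KDM6B below it.

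Other demethylase family genes gave 14 tested genes of 15 listed, and 0 were called for the tracer in either clone (0% of all genes). JMJD1C, a relative of the H3K9 demethylase KDM3A, had the smallest p in the GFP clone. It was at 104, 198 and 165 CPM in index set 1 and at 132, 129 and 140 CPM in index set 2. KDM6A, the X-linked H3K27 demethylase related to KDM6B, was at 28.8, 41.3 and 41.8 CPM in index set 1 and at 32.6, 33.4 and 34.9 in index set 2. JMJD1C and KDM6A were highest of the 12 libraries in the GFP tracer libraries of index set 1. Genes of a list were named for the smallest p, here in a comparison that holds the GFP_tracer library of index set 1. Their high level there thus follows partly from that choice. Over the family, 7 of the 14 genes were above and 7 below uninduced in GFP_tracer of index set 1. With Dam-LaminB1 in that set, 9 were above and 5 below. KDM4D, an H3K9 demethylase of low level, was at 1.33, 0.882 and 0.772 CPM in index set 1 and at 1.75, 1.16 and 0.969 CPM in index set 2, below uninduced in all 4 GFP tracer libraries. PHF2 and PHF8, the family relatives of JHDM1D with a plant homeodomain finger, had other patterns. In the GFP clone PHF8 was at 41.6, 46.7 and 47.2 CPM in index set 1 and at 45.6, 47.2 and 45.8 in index set 2. It was thus slightly above uninduced in the index set 1 tracer libraries. PHF2 was at 35.7, 21.3 and 24.8 CPM in index set 1 and at 47.2, 50.7 and 50.8 in index set 2.

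Between the index sets of the VP16 clone, 1 of the 14 family genes was higher in set 1 (JMJD5) and 8 were lower, with a median of -0.16 on the log2 scale against 0.01 over all genes and 21.7% of all genes lower. PHF2 was lower by 0.45 ± 0.05 and JMJD1C by 0.38 ± 0.05 (SE; adjusted p of 1.1e-07 and 6.2e-07, edgeR). Among 12 partners of KDM1A, 1 was higher (HDAC1) and 8 were lower, with a median of -0.14. Methyltransferases, the enzymes that write the marks, were lower in 4 of 6 cases for H3K4, 2 of 6 for H3K9, 1 of 2 for H3K27 and 4 of 5 for H3K36, and higher in none.

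Between the clones over the 3 conditions, where 7.64% of all genes were called, 1 of 10 enzymes of 2-oxoglutarate metabolism was called. This was IDH1, higher in the VP16 clone by 0.47 ± 0.11 on the log2 scale (SE; adjusted p = 0.0354, edgeR). IDH1 was at 102, 132 and 167 CPM in index set 1 of the VP16 clone and at 93.6, 102 and 116 CPM in index set 2, and between 81.3 and 89.6 CPM in the GFP clone.

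Across the 12 libraries, the genes whose log2 CPM was most like that of JHDM1D were KLF7 (Pearson r = 0.994), AARS (0.990), INHBE (0.986), TUBE1 (0.985), RAB3GAP2 (0.985) and STK4 (0.983). The points share clone, index set and the 2 GFP tracer libraries that stand apart, and over the 10 libraries without these the values were 0.941 to 0.971. For KDM6B the most alike were GOT1 (0.991) and TRIB3 (0.989), at 0.621 and 0.481 over the 10 libraries. For KDM4C they were IARS (0.957) and ATF4 (0.953), at 0.95 and 0.985 over the 10 libraries. For KDM5A they were NPAS2 (0.986) and UBXN4 (0.984), at 0.986 and 0.972 over the 10 libraries. KDM2A was most like LRFN4 (0.969) and TNS3 (0.965), and KDM1A most like RNASEH2A (0.987) and NAE1 (0.983). KDM4A was most like AKNA (0.982) and ZNF419 (0.977), KDM4B most like PRKD2 (0.909) and SLC25A1 (0.890), and KDM5B most like RP11-220I1.1 (0.970) and TCP11L2 (0.969). Over the 12 libraries the highest value for KDM4B was thus lower than for any other member. This order did not hold over the 10 libraries, where KDM4B and PRKD2 were at 0.913. There KDM1A and RNASEH2A were at 0.912, KDM4A and AKNA at 0.863, and KDM5B and RP11-220I1.1 at 0.893. KDM2A and LRFN4 were at 0.976.

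Among the members, JHDM1D correlated over 12 libraries with KDM4A (0.944), KDM5B (0.894) and KDM6B (0.885), and inversely with KDM1A (-0.687). Over the 10 libraries without the 2 GFP tracer libraries of index set 1, the value for KDM6B was 0.196 and that for KDM1A 0.665. JHDM1D and KDM5A were at -0.236 over 12 libraries and 0.922 over 10, where both were lower in index set 1. The values for KDM4A and KDM5B over 10 libraries were 0.774 and 0.60, and index set and clone are shared by these points too.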

How the data were processed

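Total RNA was extracted with Trizol and made into libraries with the Illumina TruSeq RNA kit, per the labels' protocols. The submitters' processing notes name TopHat 1.4.0, Bowtie 0.12.7, HTSeq and GRCh37. For HTSeq the version, overlap mode and strand setting were not given in the sources used here. Raw read counts per gene, deposited by the authors without normalization, were in 1 table of 36502 genes, of which 59 carried no annotation.

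The members and gene lists were chosen with earlier results of these data known. Genes were kept by filterByExpr (17262) and scaled by TMM, and all 12 libraries entered a robust quasi-likelihood fit, with a coefficient for each group, in edgeR 4.0.16 under R 4.3.3 (6 residual degrees of freedom). P-values were adjusted by Benjamini-Hochberg over all genes tested, at 0.05. The SE was the absolute log2 change divided by the square root of F. P-values reflect only the spread among these libraries, perhaps technical. The comparison of index sets used the 6 libraries of the VP16 clone with group as a covariate (16139 genes, 2 residual degrees of freedom). The clones over 3 conditions, and VP16_tracer_Dam against VP16_uninduced, were compared after the values had been seen. Log2 CPM for likeness used a prior count of 2 and genes of at least 1 CPM on average. Counting intervals (95%) came from exact binomial limits on pairs of counts. CPM per kb used the principal transcript of GENCODE. Promoters came from RefSeq, and all 9 members matched.

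Deviations from group means correlated within an index set across all 15 pairs of groups (0.41 to 0.86), which is where the pairing comes from. Replicates were not duplicates (chi-square per degree of freedom 19.6 to 126). Named genes were all members, the 3 genes of a list with the smallest p and any gene called in the comparison described, and the genes most like each member (6 for JHDM1D, 2 for the others). PHF8 in the GFP clone was named after its values were seen. The per-library values of DDIT3 were too. The comparison of the KDM1A partners between the clones is not reported here. No row matched C14orf169, CXCL1 or CXCL2. Alternatives were RLE factors, library totals, DESeq2 1.42.0, limma 3.58.1's voom, other filters on low counts, the compared groups alone, the block, other sets of libraries and leaving out each library. Scripts were tested on simulated data.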

Additional observations from a re-analysis of the deposited data

Results flagged for a closer look

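The tracer response of KDM4B had opposite signs in the clones, with both VP16_tracer libraries above their uninduced library and both GFP_tracer libraries below theirs. In index set 1 the counting intervals included 1 in both clones (0.872 to 1.01 for GFP and 0.977 to 1.13 for VP16). In index set 2 they did not (0.865 to 0.992 and 1.03 to 1.20). The difference between clones was 0.21 ± 0.20 on the log2 scale (SE), with an adjusted p of 0.9999 in edgeR's quasi-likelihood test of the interaction. KDM4B also differed in sign between index sets, being lower in index set 1 in 3 of 3 GFP groups and higher in 3 of 3 VP16 groups, by 0.29 ± 0.09 (adjusted p = 0.252, edgeR). For KDM5A both VP16_tracer libraries were above and both GFP_tracer libraries below uninduced, a difference of 0.060 ± 0.32 (adjusted p = 0.9999, edgeR). The counting interval of each of these KDM5A ratios included 1. The interaction does not pass the threshold for either gene.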

How the results depend on the processing

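No member was called for the tracer, for Dam-LaminB1 against the tracer, for the difference in tracer response or between the uninduced clones, under any alternative run. Between the clones over 3 conditions, where 0 members were called, DESeq2 called 1, the replicate block 2, the fit without the GFP tracer libraries of index set 1 called 1, and the same fit with the block 4. Leaving out each library gave 0 to 1, the 1 being KDM1A without the GFP_tracer_Dam library of index set 2. Without that library the group kept only its index set 1 library, where KDM1A was lowest. For VP16_tracer_Dam against VP16_uninduced the replicate block over all 12 libraries called 0 members, as without it. The fit to the VP16 clone alone with the replicate block called 2. Of the 5 members called between index sets in the VP16 clone, 1 was called when all 12 libraries entered, and 4 to 6 when each library was left out. Over all 12 libraries the pairing by index set changed no call of a member outside the comparison of the clones over 3 conditions.

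With all 12 libraries the index-set difference changed sign for JHDM1D (0.095), KDM2A (-0.031), KDM4A (0.16), KDM5B (0.12) and KDM6B (0.52). Without the GFP tracer libraries of index set 1 the tracer change in the GFP clone changed sign for KDM1A (0.084), KDM4A (-0.031) and KDM6B (-0.10). Leaving out 1 library moved these from -0.40 to 0.081, -0.035 to 0.78 and -0.11 to 1.58. It also changed the sign of Dam-LaminB1 against the tracer in the GFP clone for KDM5B (-0.20 to 0.50) and KDM6B (-1.25 to 0.98), of the tracer response between clones for KDM5A (-0.13 to 0.28) and KDM6B (-1.50 to 0.18), and of JHDM1D between the uninduced clones (-0.18 to 0.91). The library left out in the GFP_tracer group of index set 1 gave the sign changes of KDM1A, KDM4A and KDM6B. The tracer library that stayed was of index set 2, while the uninduced libraries were of both sets. Within index set 2 the KDM1A ratio was 0.989 (0.945 to 1.04). Other causes were not tested.

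Over all genes, the calls between the uninduced clones were 48, against 297 in DESeq2, 220 with no filter, 327 with the block, 30 in limma-voom, 1 with only the groups compared and 1 to 5 when a library was left out. Those over 3 conditions were 1318, against 2201 in DESeq2, 3609 with the block and 543 to 2221 when a library was left out. Between index sets they were 7025, against 3892 in DESeq2. Without GFP_tracer replicate 1, or any other library of its comparisons, at most 1 gene was called for the GFP tracer and for Dam-LaminB1. With 2 libraries a group and 2 that stand apart, the SE for the GFP tracer was 0.89 for JHDM1D and 0.60 for KDM6B. Small changes were undetectable, and larger ones could be missed too. Fitted changes of 1.71 and 0.99 on the log2 scale were not called there. In the VP16 clone the SE of JHDM1D for the tracer was 0.87 when all 12 libraries were fitted. It was 0.098 with that clone alone and the block.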
